A study of Mus musculus with 18 samples.

Results

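The genes described here encode the proton pump of the lysosome, the proteases that work in the acid it makes, and the glycoproteins of the lysosomal membrane. They were taken by gene symbol: the Atp6v0 and Atp6v1 subunits of the vacuolar ATPase, its accessory proteins Atp6ap1 and Atp6ap2, cathepsins named Cts with 1 further letter, and Lamp genes with a number. The rule used no measured value and found 46 genes among the 41325 entries of the count table. There were 9 subunits of the membrane sector V0, 13 of the cytosolic sector V1, 2 accessory proteins, 18 cathepsins and 4 LAMP genes.

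RNA was sequenced from granulosa cells of the follicle wall (mural granulosa cells) and from the cumulus cells around the oocyte. Cells were taken from mouse ovaries 0, 4 and 12 h after injection of human chorionic gonadotropin (hCG), a hormone that acts on the receptor for luteinizing hormone and sets off ovulation. Each of the 6 groups (mural or cumulus cells at 0, 4 or 12 h) held 3 libraries, all labelled WT. That label does not tell whether any agent other than hCG was given. Each library was a bulk sample, so fewer cells of a type and less RNA per cell cannot be told apart. Nothing in the labels says that the 3 libraries of a group are separate animals or pools. The p-values therefore measure only how much these samples vary, and part of that spread may be technical.

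The vacuolar ATPase is a rotary pump. Its V1 sector hydrolyses ATP in the cytosol and turns a ring in the V0 sector, which carries protons into the lumen of lysosomes, endosomes and secretory vesicles. Several subunits are encoded by more than one gene, and the choice of the V0 subunit a is known to bear on which membrane the pump goes to. Cathepsins are proteases that are made as inactive precursors and are matured in acid compartments, although some are also secreted. LAMP1 and LAMP2 are the most abundant proteins of the lysosomal membrane. In the ovary, cathepsin L is known as a gene induced in granulosa cells before ovulation.

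Depth was 32.2 to 47.9 M counts a library (M for 1000000), and the limit set by a count of 0, taken as 3 counts, came to 0.0585 to 0.0999 CPM (counts scaled to 1000000 a library). Libraries were grouped by title, because of the 9 titles that name cumulus cells 8 carry the mural cell type in the characteristics and 1 carries none. The markers followed the titles in part. Summed granulosa markers were lower at the later time, going from 21526 to 27218 CPM at 0 h to 4036 to 4877 CPM at 12 h in mural and from 14034 to 19933 CPM to 2900 to 3359 CPM in cumulus libraries. Summed mural-enriched markers were 1506 to 5851 CPM in mural and 19.3 to 384 CPM in cumulus libraries. Summed cumulus-enriched markers were higher in cumulus than in mural libraries at 0 h (1244 to 1468 against 1001 to 1087 CPM), but not at 12 h (176 to 199 against 379 to 578 CPM). A pair of libraries stood apart from their groups: the mitochondrial share was highest in cumulus 0 h replicate 1 (12.8% of counts), and cumulus 4 h replicate 3 had the highest sum of oocyte markers (8844 CPM). The mitochondrial share also went from 8.49 to 12.8% at 0 h to 2.52 to 2.98% at 12 h in cumulus and from 4.88 to 6.08% to 3.54 to 4.15% in mural libraries. The part of the granulosa sum and of the mitochondrial share in the changes below was not tested. Some of the results that changed without the pair of libraries are given both ways. Of 233 single-gene results with an adjusted p under 0.05, 224 were kept without both, 8 missed the threshold and 1 changed sign. Counts from the lists of other lysosomal genes also moved, and only some of those are given both ways.

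The promoters were read first, since many lysosomal genes carry the E-box CACGTG, or the longer CLEAR element (coordinated lysosomal expression and regulation) that contains it, near their start. The CLEAR element is known as the site of TFEB and its relatives, factors that drive lysosomal genes. RefSeq promoter windows (assembly GRCm38.p6, 250 bases before to 50 after the start) were found for 36 of the 46 genes. No window was matched for Atp6v0a2, Atp6v0d2, Atp6v1b2, Atp6v1c1, Atp6v1g1, Atp6v1h, Ctsb, Ctse, Ctsh and Ctsw. Both strands were searched, which for these self-complementary words is the same search, and each longer word contains the shorter. CACGTG was present in 9 of the 36 (25%), against 8.09% of all 27025 genes with a window. The 8 letters TCACGTGA were present in 5 of the 36 (13.9%), against 1.12% of all, and the self-complementary form of the CLEAR element in 0 of the 36, against 0.37% of all. Those 27025 include genes that failed the count filter given below. Among genes that passed it, 1484 held CACGTG and 12274 did not, and of the members that passed 9 of 27 held it (33.3%). A match is a string of letters and does not show that a factor binds there.

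The windows around these matches are shown because the genes that hold them recur through the results below; capitals mark CACGTG and, where the letters extend it, the whole self-complementary stretch around it. Each is written on the strand of its gene, 5′ to 3′.
Atp6v0b, chr4:117887339-117887368, minus strand: ggtCACGTGgggtcggcgcatCACGTGcgc
Atp6v0d1, chr8:105566045-105566214, minus strand: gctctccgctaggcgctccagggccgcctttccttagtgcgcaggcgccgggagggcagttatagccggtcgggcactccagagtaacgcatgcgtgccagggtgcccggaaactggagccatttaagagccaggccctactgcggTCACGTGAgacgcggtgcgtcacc
Atp6v0e, chr17:26676387-26676416, plus strand: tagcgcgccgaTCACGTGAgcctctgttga
Atp6v1a, chr16:44139373-44139402, minus strand: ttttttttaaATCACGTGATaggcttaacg
Ctsa, chr2:164833757-164833786, plus strand: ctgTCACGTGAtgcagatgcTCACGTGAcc
Ctsd, distal match, chr7:142388048-142388077, minus strand: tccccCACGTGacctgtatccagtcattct
Ctsd, proximal match, chr7:142387908-142387937, minus strand: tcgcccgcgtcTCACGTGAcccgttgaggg
Ctsf, chr19:4855074-4855103, plus strand: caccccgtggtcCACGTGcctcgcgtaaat
Ctsl, chr13:64370739-64370768, minus strand: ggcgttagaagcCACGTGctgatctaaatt
Lamp1, chr8:13159011-13159180, plus strand: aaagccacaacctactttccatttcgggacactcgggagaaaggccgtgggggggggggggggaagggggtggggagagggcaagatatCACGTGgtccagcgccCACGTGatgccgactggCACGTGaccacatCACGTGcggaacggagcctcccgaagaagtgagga
Lamp1 held 4 copies, and Atp6v0b, Ctsa and Ctsd 2 each. The windows shown for Atp6v0e, Ctsa and the proximal match of Ctsd lie wholly in annotated exons, and those of Ctsl, Lamp1 and Atp6v0d1 in part.

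Of the 46 genes, 37 passed the filter on low counts (edgeR's filterByExpr with a minimum count of 10), all 9 V0, 11 of 13 V1, both accessory, 13 of 18 cathepsin and 2 of 4 LAMP genes. The other 9 were Atp6v1e2, Atp6v1g3, Ctsg, Ctsj, Ctsm, Ctsq, Ctsr, Lamp3 and Lamp5. Ctsr had 0 counts in all 18 libraries, and Ctsg, Ctsj, Ctsm and Ctsq 0 or 1 in each. Ctsj, Ctsq, Ctsr and Ctsm belong to a rodent cluster of placental cathepsins on chromosome 13, and Ctsm ends 2.82 Mb from Ctsl, the most abundant gene of the set. Lamp3 and Lamp5, known from dendritic cells and neurons, had 0 to 20 and 0 to 22 counts, with the 22 in cumulus 4 h replicate 3.

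Together the 46 genes took 0.472 to 0.514% of all counts in mural cells at 0 h, 0.553 to 0.621% at 4 h and 0.771 to 0.794% at 12 h. In cumulus cells they took 0.356 to 0.383%, 0.397 to 0.495% and 0.578 to 0.593%. The 3 times did not overlap in either cell type. Ctsl alone made up 40.6 to 44.3% of the genes' counts in mural cells at 0 h and 57.9 to 59.3% at 12 h, whereas in cumulus cells it made up 48.7 to 50.9% at 0 h and 35.2 to 38.9% at 12 h. Per kilobase of exon it was the highest of the 46 in all 6 groups, with mean levels of 282, 600 and 709 CPM per kb in mural cells at 0, 4 and 12 h and 259.5, 334 and 362 CPM per kb in cumulus cells. The next highest at 0 h was Lamp1 in mural cells (95.1 CPM per kb) and Atp6v1g1 in cumulus cells (76.1 CPM per kb).

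**Figure D1:**
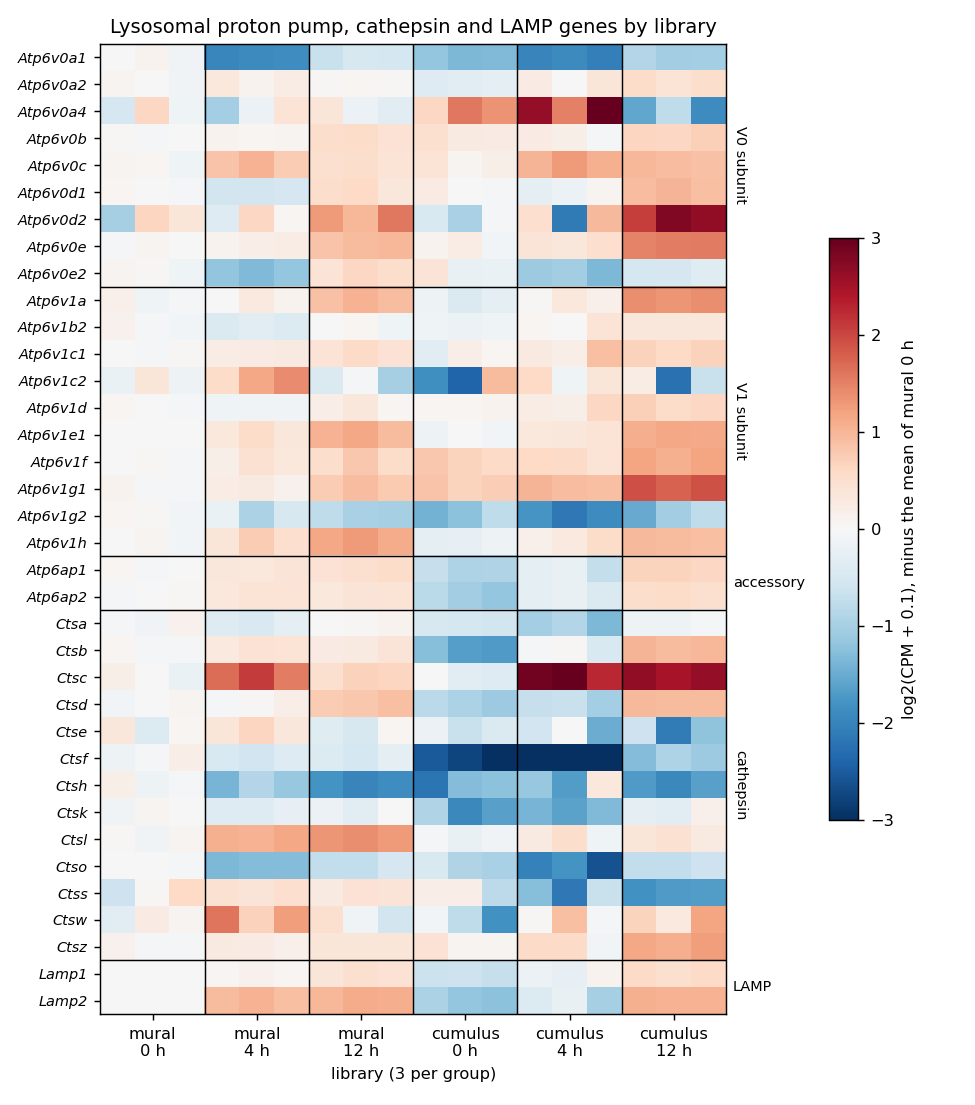
Level of 36 of the 37 genes that passed the filter in each of the 18 libraries (columns), as log2(CPM + 0.1) minus the mean of the mural 0 h libraries, with the colour range ending at 3 in both directions; rows are ordered by role. Most rows are redder at 12 h than at 0 h in both cell types, Atp6v0a1 and Ctso are bluer at 4 h, and Atp6v1b1, under 1 CPM in the mean of every group, is not drawn.

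A gene was called when the adjusted p (edgeR's quasi-likelihood test, Benjamini-Hochberg over the 19941 genes tested) was under 0.05. Levels are CPM scaled by edgeR's TMM factors. Differences are in log2 units with their standard error, 3 libraries a group, and comparisons from 1 cell type share its 0 h libraries. In mural cells 10 of the 37 rose and 8 fell from 0 to 4 h, beside 22.8% of all genes tested that rose and 22.3% that fell. By 12 h 19 had risen and 4 had fallen against 0 h, beside 21.6% and 19% of all genes. From 4 to 12 h 16 rose and 2 fell, beside 18.3% and 16.1%. The median change of the 37 from 0 to 12 h was 0.43, and that of all genes tested −0.05. So the share of these genes called higher (51.4%) lay above the background at 12 h, whereas at 4 h their shares in both directions were close to it.

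Cumulus cells had more calls. Between 0 and 4 h 18 rose and 7 fell, beside 25% and 22.8% of all genes. Between 0 and 12 h 28 rose and 4 fell, beside 31.2% and 32.9%, and the median change of the 37 was 0.83 (all genes −0.09). Between 4 and 12 h 25 rose and 3 fell, beside 29.2% and 31.3%. The rises at 12 h took in 7 of 9 V0, 8 of 11 V1, both accessory, 9 of 13 cathepsin and both LAMP genes that were tested. In mural cells the same count was 5 V0, 6 V1, 2 accessory, 4 cathepsin and 2 LAMP genes.

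The scaling matters for these splits, since in several comparisons it moves the median of all genes by more than 0.1. With library totals in place of TMM factors the all-gene median fell from −0.06 to −0.38 in mural cells at 4 h against 0 h, and the split of the 37 went from 10 higher and 8 lower to 4 and 14. At 12 h against 0 h it went to 17 and 5 in mural cells (median −0.05 to −0.23, or 39.9% of called genes higher in place of 53.2%) and to 22 and 5 in cumulus cells (median −0.09 to −0.34). At 4 h against 0 h in cumulus cells it went to 11 and 10 (median 0.13 to −0.01), and at 12 h against 4 h in mural cells to 18 and 2 (median 0.01 to 0.16). Of all genes called at 4 h against 0 h in mural cells, 29.1% were higher with library totals in place of 50.6%. In cumulus cells it was 41% in place of 52.3%. The excess of rises over falls at 12 h therefore stood under both scalings. At 4 h in cumulus cells rises and falls were nearly equal with library totals. The share of rises among those calls was still above that of all genes. In mural cells at 4 h falls outnumbered rises with library totals.

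**Figure D2:**
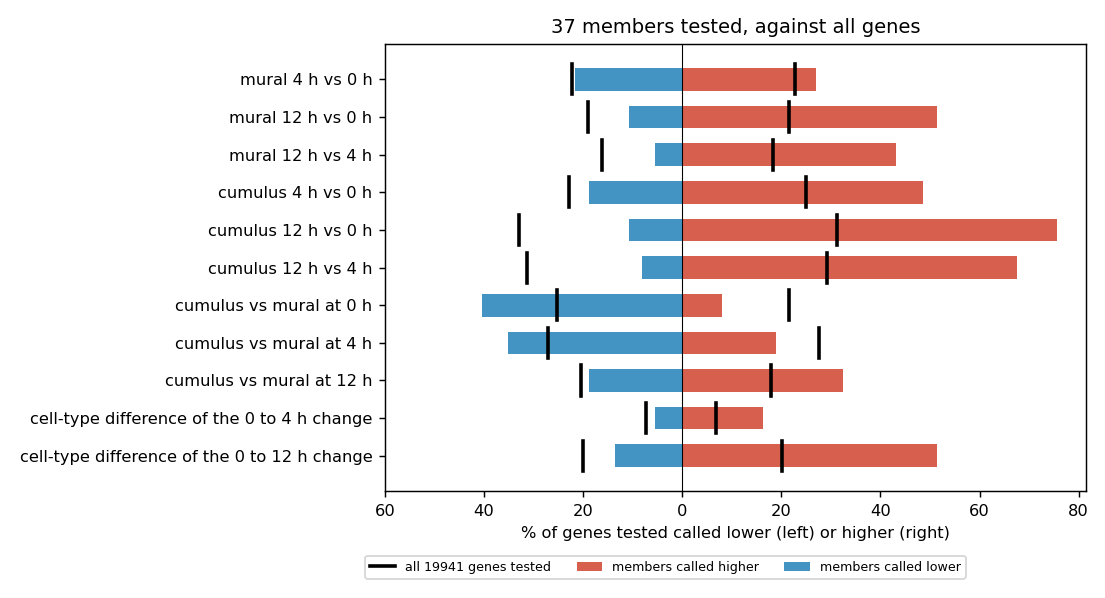
Percent of the 37 tested members called higher (red, right) and lower (blue, left) in each of the 11 comparisons, with black lines at the same percent of all 19941 genes tested. In cumulus cells at 12 h against 0 h the red bar passes its line (31.2%) and the blue bar stays short of its own (32.9%), and at 0 h the bars for cumulus against mural cells do the opposite.

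Among the V0 subunits, Atp6v0a1 (chr11:101009452-101063719, GRCm38, subunit a1) fell at 4 h in both cell types. In mural cells its level was 278, 294 and 253 CPM at 0 h, 70.3, 73.1 and 75.3 CPM at 4 h and 173, 196 and 190 CPM at 12 h. In cumulus cells it was 123, 107 and 110 CPM, then 69.5, 73.4 and 66.2 CPM, and 149, 134 and 136 CPM. All 4 h libraries lay below all others, and at 4 h the cell types overlapped. The fall to 4 h was −1.92 ± 0.09 in mural cells (adjusted p = 1.91e-11) and −0.70 ± 0.09 in cumulus cells (adjusted p = 3.97e-06), and the difference between these changes was 1.21 ± 0.13 (adjusted p = 5.03e-06). At 12 h the gene was still below 0 h in mural cells (−0.56 ± 0.09, adjusted p = 5.29e-05) and slightly above it in cumulus cells (0.30 ± 0.09, adjusted p = 0.00709). That cumulus rise was lost with library totals, and without mural 4 h replicate 3 (0.21, adjusted p = 0.0509) or mural 12 h replicate 3 (0.21, adjusted p = 0.054), which enter the shared spread and scaling.

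Atp6v0e2, a copy of the small subunit e, fell at 4 h in both cell types and ended on opposite sides. Mural levels were 96.5, 92.2 and 83.1 CPM at 0 h, 39.6, 35.9 and 40.2 CPM at 4 h and 120, 140 and 129 CPM at 12 h. Cumulus levels were 118, 77.4 and 78.7 CPM, then 42.6, 43.9 and 35.6 CPM, and 62.2, 63.9 and 70.8 CPM. The change from 0 to 12 h was 0.52 ± 0.14 in mural cells (adjusted p = 0.0052) and −0.48 ± 0.14 in cumulus cells (adjusted p = 0.00569), with a tested difference of −0.997 ± 0.19 (adjusted p = 0.000586). The cumulus fall rested on cumulus 0 h replicate 1, the high library; without it the change was −0.25 (adjusted p = 0.0629).

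Its partner Atp6v0e rose in both cell types by 12 h. Mural libraries had 26.4, 29.3 and 27.2 CPM at 0 h and 49.9, 53.1 and 55 CPM at 12 h, and cumulus libraries 29.8, 32.1 and 26.2 CPM at 0 h and 77.5, 80.2 and 81.6 CPM at 12 h. No 12 h library overlapped a 0 h library. The rise was 0.93 ± 0.09 in mural cells and 1.44 ± 0.09 in cumulus cells, and the difference was 0.51 ± 0.13 (adjusted p = 0.00407).

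Atp6v0c encodes the main subunit of the proton-carrying ring. It rose early, from 40.2, 39.3 and 34.5 CPM at 0 h to 68.9, 78 and 64.4 CPM at 4 h in mural cells, and from 50.4, 40.3 and 42.7 CPM to 77.2, 91.3 and 79 CPM in cumulus cells. The groups did not overlap, and the change was 0.89 ± 0.11 in each cell type (adjusted p = 1.88e-06 in mural and 1.61e-06 in cumulus cells). At 12 h mural libraries had come back to 53.4, 55 and 50.5 CPM, while cumulus libraries held 75.9, 72 and 69.9 CPM. The other ring subunit, Atp6v0b, with 2 E-boxes above, rose by 12 h in mural (0.51 ± 0.09) and cumulus cells (0.33 ± 0.09), and not at 4 h in either. Atp6v0d1, the stalk subunit that couples V0 to V1, fell in mural cells at 4 h (−0.54 ± 0.11), and by 12 h it had risen in mural (0.49 ± 0.10) and cumulus cells (0.88 ± 0.11).

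A pair of V0 genes were near the limit of counting. The counts of Atp6v0a4 in cumulus libraries were 23, 66 and 48 (0 h), 126, 41 and 183 (4 h) and 2, 6 and 1 (12 h), and the summed oocyte markers went from 488 to 2472 CPM at 0 h and 1423 to 8844 CPM at 4 h to 5.68 to 11.7 CPM at 12 h (Zp1 and Figla at 0). The part of oocyte RNA in its fall was not tested, as the oocyte sum and the cumulus 12 h group cannot be told apart. Atp6v0d2, known from osteoclasts and macrophages, had 8, 6 and 14 counts in cumulus cells at 0 h and 59, 99 and 100 at 12 h.

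Because subunit a has several genes, the change of Atp6v0a1 also shifted its share of the family. Of the CPM per kb of exon of Atp6v0a1, Atp6v0a2 and Atp6v0a4, Atp6v0a1 made up 77.0% ± 0.88 (SD, n = 3) in mural cells at 0 h, 43.3% ± 2.1 at 4 h and 68.8% ± 1.4 at 12 h. In cumulus cells it made up 63.1% ± 2.7, 41.6% ± 4.7 and 54.8% ± 0.97. In both cell types the 3 times did not overlap, nor did the cell types at 0 and 12 h, but at 4 h they did (exact permutation p = 0.6, two-sided). With 3 libraries against 3 the exact permutation test cannot go below 0.1, which each of the other comparisons reached. Atp6v0a2 made up nearly all the rest, 56.5% in mural and 56.1% in cumulus cells at 4 h. Its level in mural cells was 88.6, 84.7 and 78.4 CPM at 0 h and 104, 90.8 and 98.5 CPM at 4 h (0.22 ± 0.09, adjusted p = 0.0614, not called). In cumulus libraries it rose from 63.8, 67.1 and 69 CPM to 99.8, 84.5 and 107 CPM at 4 h (0.54 ± 0.09, adjusted p = 9.94e-05) and 123, 111 and 120 CPM at 12 h (0.82 ± 0.09, adjusted p = 5e-07). The lower cumulus share of Atp6v0a1 at 12 h thus stood beside a rise of Atp6v0a2 that was larger than its own.

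Another a subunit, a3, is encoded by Tcirg1, which the name pattern does not take in. Tcirg1 had 70.1, 63.2 and 66.9 CPM in mural cells at 0 h and 80.4, 81.5 and 75 CPM in cumulus cells at 12 h. Counted in, it held 21.1% of the family in mural cells at 0 h, 25.3% at 4 h and 22.6% at 12 h, and 30.6%, 20.5% and 30.6% in cumulus cells. Atp6v0a1 was then 60.8%, 32.4% and 53.3% in mural and 43.7%, 33.0% and 38.0% in cumulus cells, so the dip at 4 h was there on either count.

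The subunit e pair diverged between cell types at 12 h. Atp6v0e was 16.4% of the pair in mural cells at 0 h, 34.2% at 4 h and 20.7% at 12 h, but 17.5%, 36.8% and 43.8% in cumulus cells. At 0 and 4 h the cell types overlapped (exact permutation p = 0.7 and 0.5), and at 12 h they did not (p = 0.1, the smallest possible). Other families were carried by a single gene in these cells: Atp6v1c1 made up at least 90.4% and Atp6v1g1 at least 90.7% of its family in every library, and Atp6v0d1 at least 98.0%.

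**Figure D3:**
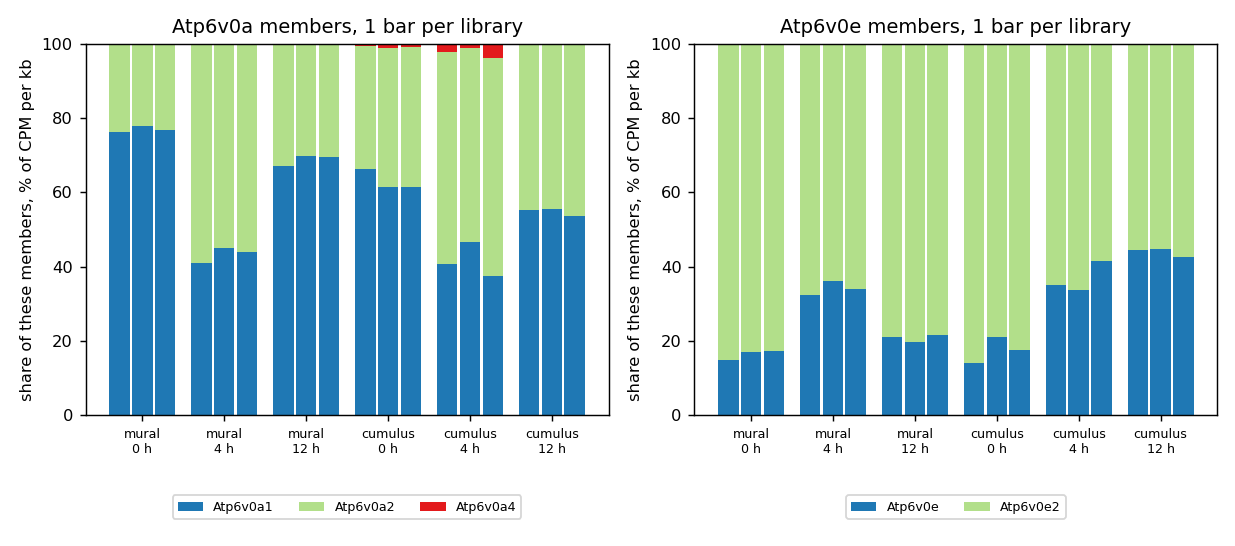
Share of the summed CPM per kb of exon held by each of the Atp6v0a members (left) and Atp6v0e members (right), with 1 stacked bar per library. Atp6v0a1 (blue, left) is lowest at 4 h in both cell types (means of 43.3% in mural and 41.6% in cumulus cells), and Atp6v0e (blue, right) at 12 h is 20.7% in mural and 43.8% in cumulus cells.

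The V1 subunits moved more evenly. Atp6v1a (chr16:44085402-44139705, GRCm38), the catalytic subunit A that binds ATP, had 55, 45.1 and 48.4 CPM in mural cells at 0 h, 49.9, 60.1 and 52.9 CPM at 4 h and 91.1, 102 and 93.5 CPM at 12 h. Cumulus libraries had 44.4, 36.4 and 40.9 CPM, then 50.9, 61.5 and 55 CPM, and 131, 123 and 130 CPM. The 12 h libraries were above all earlier ones, and cumulus above mural. The change from 0 to 12 h was 0.95 ± 0.11 in mural cells (adjusted p = 8.88e-07) and 1.66 ± 0.11 in cumulus cells (adjusted p = 3.39e-10), and the difference was 0.71 ± 0.15 (adjusted p = 0.00109).

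Atp6v1h, a regulatory subunit of the stalk, rose by the most of the V1 genes in mural cells. It had 33.4, 35.2 and 31.3 CPM there at 0 h and 74.7, 80.6 and 72.6 CPM at 12 h, and 27.8, 28.1 and 29.9 CPM and 65.3, 64.8 and 62.7 CPM in cumulus cells. The changes were 1.19 ± 0.11 and 1.17 ± 0.11, and their difference (−0.02 ± 0.16, adjusted p = 0.927) was not called. Atp6v1e1, a peripheral stalk subunit, went from 53, 52.5 and 51.5 CPM to 107, 117 and 101 CPM in mural cells and from 47, 52.9 and 49.3 CPM to 112, 117 and 115 CPM in cumulus cells. Its changes of 1.05 ± 0.09 and 1.21 ± 0.09 also did not differ by the test (0.15 ± 0.12, adjusted p = 0.329).

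Atp6v1g1, the other peripheral stalk subunit, stood higher in cumulus cells throughout. Mural libraries had 55.4, 49.2 and 49.1 CPM at 0 h and 87.6, 96.7 and 88.1 CPM at 12 h, and cumulus libraries 92, 81.9 and 85.1 CPM and 195, 174 and 193 CPM. At no time did the cell types overlap, with cumulus higher by 0.75 ± 0.09 at 0 h (adjusted p = 1.63e-06) and 1.04 ± 0.09 at 12 h (adjusted p = 4.51e-08). Atp6v1g2, its brain-enriched copy, was lower in cumulus cells at 0 h (4.1, 4.6 and 6.5 CPM, against 11.4, 11.2 and 10.5 CPM in mural cells). It fell in mural cells to 6.46, 5.55 and 5.43 CPM at 12 h (−0.92 ± 0.24, adjusted p = 0.00407).

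Among the remaining V1 genes, Atp6v1b2, the widely expressed non-catalytic B subunit, fell in mural cells at 4 h (−0.40 ± 0.10) and was not called there at 12 h (−0.03 ± 0.10, adjusted p = 0.834), while in cumulus cells it had risen by 12 h (0.49 ± 0.10). Atp6v1c1, Atp6v1d and Atp6v1f rose by 0.46 to 0.67 in cumulus cells from 0 to 12 h. The cumulus 4 h calls of Atp6v1d, Atp6v1c1 and Atp6v1b2 rested on cumulus 4 h replicate 3, without which the changes were 0.12 (adjusted p = 0.254), 0.24 (adjusted p = 0.101) and 0.18 (adjusted p = 0.056), and the Atp6v1d call was lost without any of several other libraries too. Atp6v1b1, a copy known from kidney intercalated cells, had 8, 8 and 6 counts in cumulus cells at 0 h and 0, 0 and 2 at 12 h, which was called lower. That call was lost without cumulus 12 h replicate 1 (adjusted p = 0.0738) or cumulus 12 h replicate 2 (adjusted p = 0.0741). Atp6v1c2 was called in none of the 11 comparisons.

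Both accessory proteins followed the same course. Atp6ap1, which assists assembly of the V0 sector, had 134, 126 and 127 CPM in mural cells at 0 h and 173, 180 and 188 CPM at 12 h, and 80.2, 67.8 and 68.9 CPM and 206, 204 and 199 CPM in cumulus cells. Cumulus cells thus started below and ended above mural cells, without overlap at either time, although the difference at 12 h was not called (0.17 ± 0.11, adjusted p = 0.229). Its change was 0.49 ± 0.11 in mural and 1.49 ± 0.11 in cumulus cells, a difference of 1.001 ± 0.15 (adjusted p = 5.79e-05). Atp6ap2, also known as the prorenin receptor, changed by 0.37 ± 0.09 and 1.54 ± 0.09, a difference of 1.16 ± 0.13 (adjusted p = 2.1e-06).

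Cathepsin L, the product of Ctsl (chr13:64359337-64370890, GRCm38), is an endopeptidase of the papain family. Mural libraries had 1860, 1693 and 1936 CPM at 0 h, 3810, 3768 and 4092 CPM at 4 h and 4538, 4798 and 4461 CPM at 12 h. Cumulus libraries had 1786, 1572 and 1695 CPM, then 2202, 2628 and 1676 CPM, and 2342, 2498 and 2216 CPM. The cell types overlapped at 0 h and separated at 4 and 12 h. In mural cells the rise was 1.09 ± 0.14 at 4 h (adjusted p = 4.73e-06) and 1.33 ± 0.14 at 12 h (adjusted p = 4.33e-07). In cumulus cells it was 0.36 ± 0.14 (adjusted p = 0.0372) and 0.48 ± 0.14 (adjusted p = 0.00548), and the 4 h libraries overlapped those of 0 h.

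The cumulus 4 h call of Ctsl was lost under 12 of 26 alternatives, with changes of 0.20 to 0.56, the lowest without cumulus 4 h replicate 2 (adjusted p = 0.209). The difference in response between the cell types was −0.72 ± 0.20 at 4 h (adjusted p = 0.0189) and −0.85 ± 0.20 at 12 h (adjusted p = 0.00221). At 4 h that difference was not called without mural 0 h replicate 1 (−0.68, adjusted p = 0.0503), mural 0 h replicate 2 (−0.62, adjusted p = 0.0685) or mural 4 h replicate 3 (−0.66, adjusted p = 0.069). Of the exon bases of Ctsl, 26.8% overlap an antisense gene, and the strand setting of the counting is not given in the sources used here.

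Ctsc encodes cathepsin C, a dipeptidyl peptidase that activates granule serine proteases in blood cells. Mural libraries had 64.2, 57.3 and 49.2 CPM at 0 h, 180, 242 and 164 CPM at 4 h and 79.4, 91.5 and 88.7 CPM at 12 h. Cumulus libraries had 55.9, 44.6 and 43.4 CPM, then 422, 481 and 273 CPM, and 359, 315 and 352 CPM. The gene peaked at 4 h in mural cells and stayed up in cumulus cells. At 4 h the rise was 1.78 ± 0.19 in mural cells (adjusted p = 4.07e-07) and 3.03 ± 0.19 in cumulus cells (adjusted p = 7.67e-10), and at 12 h 0.60 ± 0.18 (adjusted p = 0.012) and 2.83 ± 0.19 (adjusted p = 6.48e-10). The tested difference was 1.25 ± 0.26 at 4 h (adjusted p = 0.00292) and 2.23 ± 0.26 at 12 h (adjusted p = 3.36e-06).

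Ctsb, for cathepsin B, rose mainly in cumulus cells. Mural libraries held 309, 293 and 292 CPM at 0 h, 365, 401 and 397 CPM at 4 h and 354, 360 and 387 CPM at 12 h. Cumulus libraries began at 122, 95.4 and 91 CPM, reached 285, 304 and 217 CPM at 4 h and 604, 571 and 594 CPM at 12 h. They thus crossed from below every mural library to above every one. The cumulus change from 0 to 12 h was 2.52 ± 0.13 (adjusted p = 1.66e-11), the mural change was 0.30 ± 0.12 (adjusted p = 0.0615, not called), and the difference was 2.22 ± 0.18 (adjusted p = 4.97e-08). In mural cells the small rise at 4 h (0.38 ± 0.12, adjusted p = 0.0176) was lost in 5 of the 18 repeats with 1 library left out, at its lowest without mural 4 h replicate 3 (0.29, adjusted p = 0.13). Of its exon bases 12.8% overlap Fdft1 on the other strand.

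The aspartic protease cathepsin D, from Ctsd, had a late rise. Its mural level was 148, 155 and 164 CPM at 0 h, 151, 158 and 179 CPM at 4 h and 264, 273 and 288 CPM at 12 h, and its cumulus level was 88.3, 80.7 and 73.1 CPM, then 96.1, 97.4 and 76.4 CPM, and 305, 298 and 302 CPM. At 4 h neither cell type had a call, and the 0 and 4 h libraries overlapped in both. The change to 12 h was 0.82 ± 0.10 in mural cells (adjusted p = 4.2e-06) and 1.90 ± 0.11 in cumulus cells (adjusted p = 5.38e-11), and the difference was 1.08 ± 0.15 (adjusted p = 2.02e-05). Of its exon bases 34.4% also belong to Gm49369, annotated on the same strand, so reads could be split between the pair.

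Ctsf, for cathepsin F, had the largest difference between the cell types before hCG among the members over 10 CPM. It stood at 40.5, 43.7 and 52.3 CPM in mural and 7.78, 6.64 and 5.31 CPM in cumulus cells at 0 h (−2.79 ± 0.19, adjusted p = 4.58e-09). At 4 h mural libraries had 33.1, 30.6 and 34.5 CPM and cumulus libraries 4.74, 4.8 and 2.75 CPM. Both cell types were called lower than at 0 h, and the difference between them was −2.997. At 12 h mural libraries had 34.2, 31.5 and 36.7 CPM and cumulus libraries 18.3, 23.6 and 21.3 CPM. The gap had narrowed to −0.70 ± 0.18 (adjusted p = 0.00469), and the cumulus rise of 1.68 ± 0.18 differed from the mural change by 2.09 ± 0.25 (adjusted p = 5.7e-06). The small mural fall at 4 h (−0.47 ± 0.18, adjusted p = 0.0358) was lost without mural 0 h replicate 3, mural 4 h replicate 1 or mural 4 h replicate 2 (adjusted p = 0.123, 0.056 and 0.13).

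Other cathepsins fell after hCG. Ctsh, an aminopeptidase, went from 77.4, 61.8 and 67.3 CPM to 26.2, 37.4 and 30.9 CPM at 4 h and 19.8, 17.3 and 18.8 CPM at 12 h in mural cells, a change of −1.89 ± 0.36 by 12 h (adjusted p = 0.000385). Its mural fall at 4 h (−1.13 ± 0.35, adjusted p = 0.0147) was not called without mural 0 h replicate 1 or mural 4 h replicate 3 (adjusted p = 0.0658 and 0.0533). In cumulus cells Ctsh had 15, 27.7 and 29.3 CPM at 0 h and 31.3, 21.5 and 85.9 CPM at 4 h, so the called rise at 4 h (0.94 ± 0.35, adjusted p = 0.0359) came from replicate 3 alone. Without that library the change was 0.14 (adjusted p = 0.71), and without both libraries that stood apart it was −0.11 (adjusted p = 0.654).

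Ctso, for cathepsin O, dipped at 4 h in both cell types. Mural libraries had 34.1, 34.3 and 32.8 CPM, then 13.2, 13.6 and 13.7 CPM, and 20.2, 20.1 and 23.6 CPM, and cumulus libraries 24.6, 18.1 and 17.2 CPM, then 8.15, 9.68 and 5.39 CPM, and 20.1, 20 and 21.7 CPM. All 4 h libraries were below all others of their cell type. The falls to 4 h were −1.32 ± 0.17 (adjusted p = 5.26e-06) and −1.37 ± 0.17 (adjusted p = 3.58e-06). By 12 h the cumulus level did not pass the test against 0 h (0.05 ± 0.17, adjusted p = 0.82), and the mural level was still lower (−0.66 ± 0.17, adjusted p = 0.00376). Ctsa, the serine carboxypeptidase that protects lysosomal galactosidase and neuraminidase, had a like dip, from 137, 130 and 152 CPM to 106, 102 and 114 CPM in mural cells (−0.38 ± 0.10) and from 100, 96.6 and 95.2 CPM to 68.8, 75.9 and 54.4 CPM in cumulus cells (−0.55 ± 0.10).

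Ctsz, a carboxypeptidase, rose in cumulus cells from 122, 95.5 and 96.1 CPM to 203, 194 and 216 CPM at 12 h (0.97 ± 0.14, adjusted p = 1.02e-05). Its mural change (0.36 ± 0.14, adjusted p = 0.0496) was lost under 12 of 26 alternatives, 11 of them with 1 library left out and adjusted p of 0.0631 to 0.155. Ctsk, known from osteoclasts, stayed under 4 CPM in every library. Ctss, abundant in macrophages and other antigen-presenting cells, fell in cumulus cells from 2.1, 2.1 and 1.01 CPM to 0.443, 0.498 and 0.502 CPM (−1.84 ± 0.42, adjusted p = 0.00101). Beside it, the sum of 15 macrophage and leukocyte markers was 14.7 to 28.3 CPM in cumulus cells at 0 h and 40.8 to 43.5 CPM at 12 h. Without Cd52 the same sum was 14.5 to 27.7 CPM and 9.91 to 11.1 CPM, and its part in the fall of Ctss was not tested. Ctse and Ctsw were under 3 CPM throughout.

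Lamp2 (chrX:38401357-38456454, GRCm38), which also serves chaperone-mediated autophagy, had 138, 137 and 135 CPM in mural cells at 0 h, 263, 280 and 254 CPM at 4 h and 272, 296 and 291 CPM at 12 h. In cumulus cells it had 71.4, 61.2 and 58.2 CPM, then 103, 117 and 68.1 CPM, and 285, 283 and 283 CPM. In mural cells the 4 h libraries were already near those of 12 h. In cumulus cells Lamp2 was called higher at 4 h too (0.59 ± 0.14, adjusted p = 0.00179), and the overlap with 0 h came from replicate 3 alone, without which the change was 0.79 (adjusted p = 1.36e-07). By 12 h the changes were 1.06 ± 0.14 (adjusted p = 6.04e-06) and 2.16 ± 0.14 (adjusted p = 4.77e-10), and the levels of the cell types overlapped.

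Lamp1, with 4 E-boxes in its window, had 257, 254 and 253 CPM in mural cells at 0 h and 328, 358 and 342 CPM at 12 h, and 162, 166 and 157 CPM and 378, 357 and 377 CPM in cumulus cells. No 12 h library overlapped a 0 h library. Its changes were 0.43 ± 0.09 (adjusted p = 0.000821) and 1.20 ± 0.09 (adjusted p = 2.91e-09), a difference of 0.77 ± 0.13 (adjusted p = 0.000138). In both cell types Lamp2 thus had the larger log2 change of the pair.

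**Figure D4:**
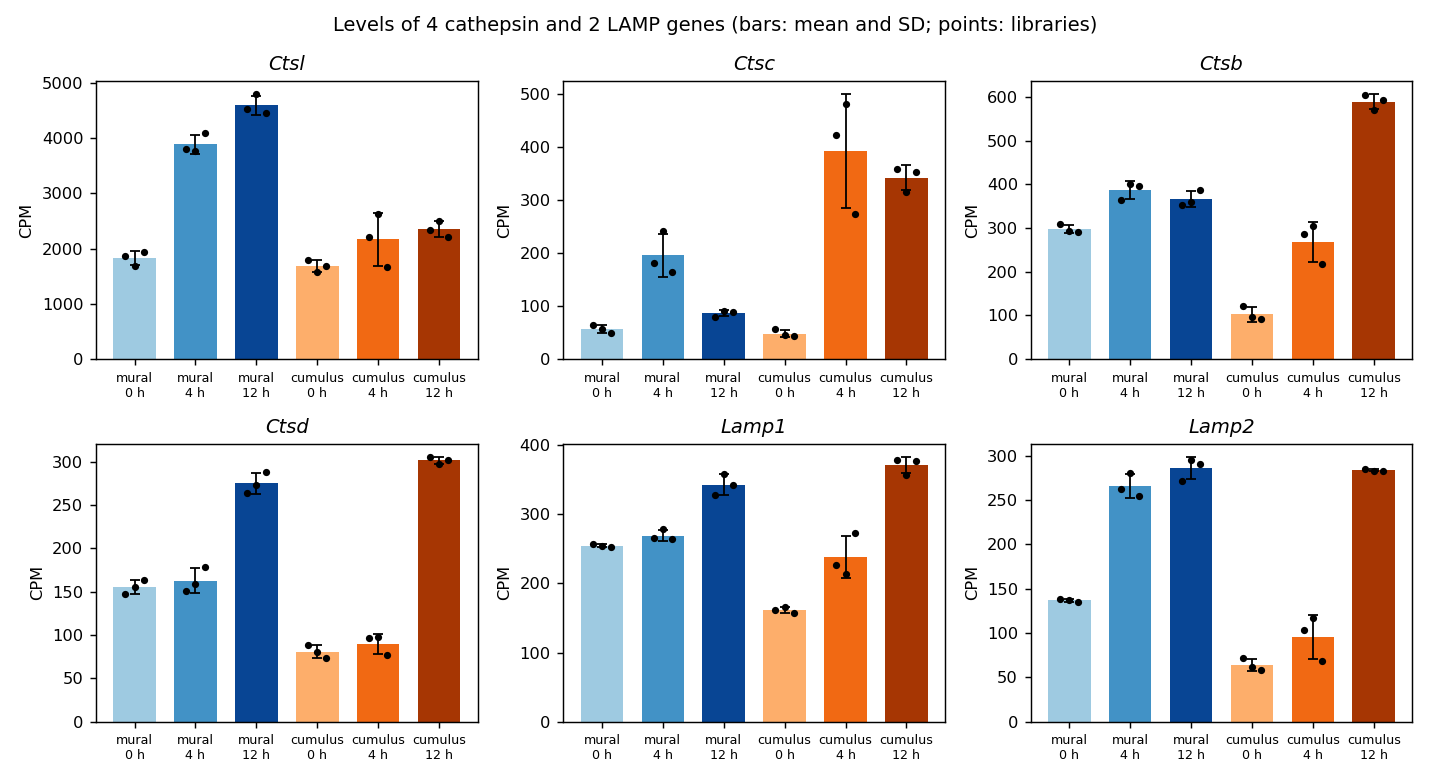
Level in TMM-scaled CPM (y, linear from 0) of 4 cathepsin and 2 LAMP genes by cell type and hours after hCG; bars are means of 3 libraries with the SD, and points are libraries. Ctsl is higher in mural than in cumulus cells at 4 and 12 h, while Ctsb and Ctsc are higher in cumulus cells at 12 h.

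Before hCG, more of these transcripts were called lower than higher in cumulus against mural cells. At 0 h 3 of the 37 were higher in cumulus cells and 15 lower, beside 21.5% and 25.3% of all genes tested. The 15 included 7 cathepsins, both LAMP and both accessory genes, with Ctsf, Ctsb (−1.53 ± 0.13) and Ctsh (−1.52 ± 0.36) furthest down, and the 3 higher were the pump subunits Atp6v0b, Atp6v1f and Atp6v1g1. At 4 h 7 were higher and 13 lower, beside 27.6% and 27%, and 9 of the 13 were cathepsins. At 12 h 12 were higher and 7 lower, beside 18% and 20.5%. With library totals the split at 0 h remained 3 and 15 (41.3% of all called genes higher in place of 46%). At 4 h it became 11 and 12 (58.4% in place of 50.6%) and at 12 h 10 and 10 (35.6% in place of 46.7%). The majority of higher calls at 12 h thus depended on the scaling. Their share of the calls was above that of all genes under both scalings.

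The change of direction was tested as the difference between the cell types' responses. From 0 to 4 h 6 genes changed more upward in cumulus than in mural cells and 2 more downward, beside 6.78% and 7.26% of all genes. With library totals the split was 11 and 1, but all genes shifted upward too. Their median went from 0.07 to 0.25, and 69.3% of all called genes were higher in place of 48.3%. From 0 to 12 h the split with TMM factors was 19 and 5, beside 20.1% and 20%, with a median of 0.52 against −0.05 over all genes. With library totals it was 17 and 5 (45.9% of all called genes higher in place of 50.2%). The 19 included 8 cathepsins, 4 V0, 3 V1, both accessory and both LAMP genes, and the 5 were Atp6v0a4, Atp6v0e2, Atp6v1b1, Ctsl and Ctss. Among members over 10 CPM, Ctsl and Atp6v0e2 were thus the ones whose response was the lower in cumulus cells. Called in each cell type from 0 to 12 h were 18 rises, while Atp6v0e2 and Atp6v0a1 had opposite calls.

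**Figure D5:**
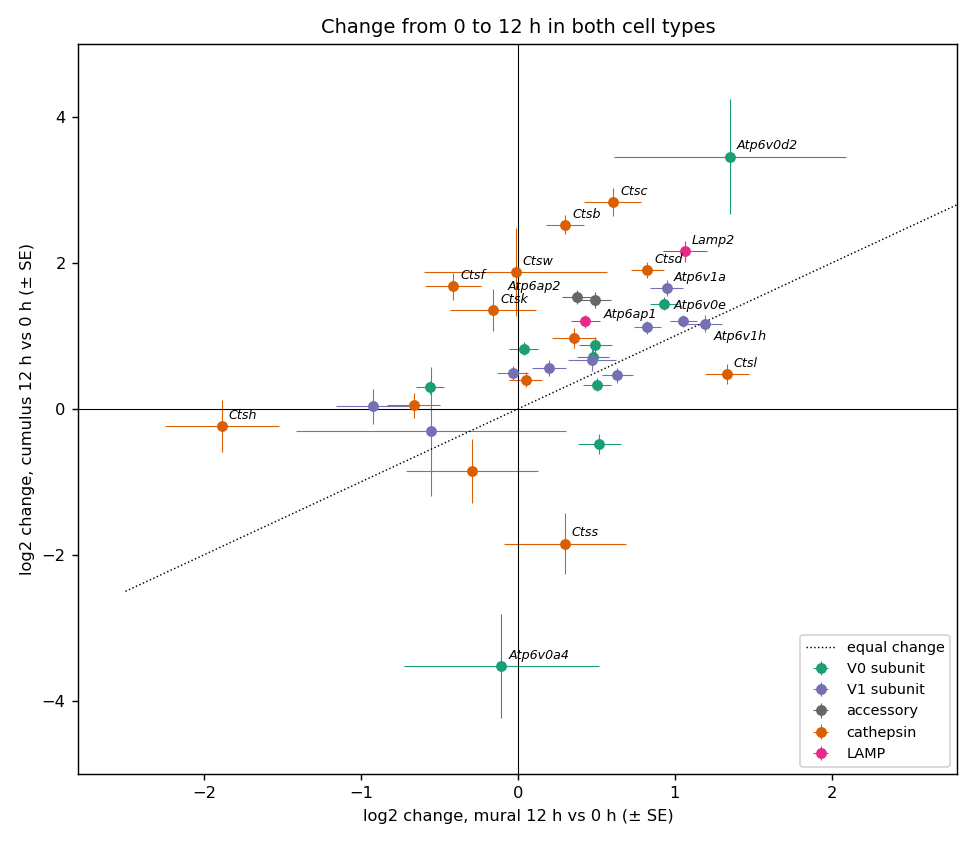
Change from 0 to 12 h in cumulus cells (y) against that in mural cells (x), in log2 units with standard errors, for 36 genes coloured by role; the diagonal marks equal change. Most points lie above the diagonal, Ctsl (1.33 in mural, 0.48 in cumulus cells) and Atp6v0e2 (0.52 and −0.48, unlabelled) lie below it.

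Set by sequence, the 9 genes with CACGTG in the window were all called higher in cumulus cells from 0 to 12 h, with a median change of 1.2. Over all 1484 tested genes with the word in a window 34.5% were higher and 33.6% lower, with a median of −0.0092. Of the 18 tested members whose window lacked it, 11 were higher and 4 lower, with a median of 0.51. Over all 12274 tested genes without the word 33% were higher and 33.2% lower, with a median of −0.0542. The members without the word thus also had more rises than their background. In mural cells over the same time 7 members with the word were higher and 0 lower (median 0.51), beside 26.1% and 20.1% of all tested genes with it. Of the members without it 9 were higher and 3 lower (median 0.37), beside 22.9% and 20.4% of all tested genes without it. At 4 h in mural cells 1 member with the word was higher and 3 lower, beside 26.8% and 23.8% of all tested genes with it. Of the members without it 7 were higher and 3 lower, beside 24.2% and 24.1% of all tested genes without it. These are descriptions of small groups and no test was made between them.

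The rest of the lysosome was examined through fixed lists of other genes. Of 36 other lysosomal hydrolases and their activators, 29 rose and 3 fell in cumulus cells from 0 to 12 h, beside 31.2% and 32.9% of all genes. In mural cells 8 rose and 10 fell, beside 21.6% and 19% of all genes. Without both libraries that stood apart, 12 rose and 14 fell there. At 4 h 22 fell and 5 rose in mural cells (all genes 22.3% and 22.8%), and 13 fell and 4 rose in cumulus cells (22.8% and 25%). Without both libraries that stood apart the cumulus split was 8 against 7. Before hCG 28 of the 36 were lower in cumulus cells and 0 were higher (all genes 25.3% and 21.5%). From 0 to 12 h 28 responded more upward in cumulus cells and 2 more downward (all genes 20.1% and 20%). Of the differences called from 0 to 4 h, 4 were more upward in cumulus cells and 2 more downward (all genes 6.78% and 7.26%). Without both libraries that stood apart they were 16 and 2. The shares of all genes without those libraries are not given here, so a general gain of calls cannot be told apart.

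Examples span this range. Lgmn, for the protease legumain that processes cathepsins, had 33.7, 44 and 49.2 CPM in mural cells at 0 h and 420, 473 and 505 CPM at 12 h, and 11.5, 15 and 16.9 CPM and 275, 275 and 312 CPM in cumulus cells. No library overlapped between the times, and the changes were 3.46 ± 0.19 and 4.31 ± 0.19. Psap, the precursor of the saposins that help degrade sphingolipids, went from 843, 799 and 911 CPM to 7181, 8317 and 8408 CPM in mural cells and from 349, 290 and 279 CPM to 1826, 2121 and 1901 CPM in cumulus cells. It changed by 3.23 ± 0.15 and 2.67 ± 0.15. Man2b1, the lysosomal alpha-mannosidase, moved apart instead, falling in mural cells from 136, 121 and 137 CPM to 98.1, 86.9 and 100 CPM and rising in cumulus cells from 67.3, 61.3 and 54.6 CPM to 234, 235 and 228 CPM, a difference of 2.40 ± 0.18 (adjusted p = 3.47e-08).

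Of 24 other lysosomal membrane and luminal transport proteins, 8 rose and 5 fell in mural cells from 0 to 12 h, and 14 rose and 3 fell in cumulus cells. Here and for the lists below, the shares of all genes over the same time were 21.6% higher and 19% lower in mural cells and 31.2% and 32.9% in cumulus cells, so the mural falls of this list were near the background. Cd63, a tetraspanin of late endosomes, was among the rises, by 2.53 and 2.90. Of 21 sorting and trafficking genes, 10 rose and 4 fell in mural and 14 rose and 2 fell in cumulus cells. Igf2r, the larger mannose 6-phosphate receptor that brings hydrolases to the lysosome, fell in mural cells from 386, 313 and 376 CPM to 117, 93.6 and 122 CPM. This was a change of −1.69, and the cumulus response differed from it by 1.19, which was called. Before hCG Igf2r was lower in cumulus than in mural cells (−1.34), and at 4 h too (−0.76).

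Of 18 regulators, 8 rose and 1 fell in mural cells and 9 rose and 1 fell in cumulus cells. Rragd, a Rag GTPase of the lysosomal nutrient-sensing complex and a known target of TFEB, had 2.69, 4.31 and 4.41 CPM in mural cells at 0 h and 172, 208 and 166 CPM at 4 h. In cumulus cells it had 2.46, 2.18 and 1.54 CPM and 94.9, 84.1 and 45.7 CPM. The 4 h changes were 5.59 ± 0.27 and 5.19 ± 0.27, the largest in the list in either cell type. Tfe3, a relative of TFEB, rose in cumulus cells by 1.5 ± 0.12 to 12 h (37.5, 37.8 and 39.5 CPM to 108, 111 and 106 CPM). In mural cells its change was 0.26 ± 0.12 (adjusted p = 0.0871, not called), and the difference was 1.24 ± 0.16 (adjusted p = 1.33e-05).

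Of 14 pump partners and assembly factors, 4 rose and 4 fell in mural cells and 6 rose and 3 fell in cumulus cells from 0 to 12 h. Ncoa7, a TLDc protein that binds the V1 sector, went in mural cells from 35.2, 32.8 and 31.2 CPM to 366, 496 and 406 CPM at 4 h and 255, 315 and 274 CPM at 12 h. Cumulus libraries went from 30.2, 21.9 and 22.7 CPM to 156, 155 and 114 CPM and then 480, 492 and 452 CPM. It was thus highest at 4 h in mural and at 12 h in cumulus cells, and the response differed by −1.17 ± 0.21 at 4 h (adjusted p = 0.000923) and 1.16 ± 0.21 at 12 h (adjusted p = 0.000267).

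Of 15 cystatin and serpin genes listed here as cathepsin inhibitors, 8 passed the filter. In mural cells 7 of them rose and 0 fell at 4 h (all genes 22.8% and 22.3%). Whether each of them acts on cathepsins was not tested. Serpinb9, known as an inhibitor of granzyme B, had 11, 10.5 and 10.3 CPM in mural cells at 0 h, 677, 912 and 659 CPM at 4 h and 41.8, 45.9 and 37 CPM at 12 h. In cumulus cells it had 15.8, 12.7 and 13.5 CPM, then 67.7, 102 and 61.9 CPM, and 15.1, 16.4 and 16.7 CPM. The rise at 4 h was 6.14 ± 0.20 in mural and 2.46 ± 0.17 in cumulus cells, a difference of −3.68 ± 0.24 (adjusted p = 3.75e-08). Among 8 cathepsin-related genes that the name pattern leaves out, only Tinagl1, which encodes a secreted protein with a cathepsin-like domain, passed the filter. It had 3.36, 3.85 and 5.27 CPM in mural cells at 0 h and 195, 240 and 238 CPM at 12 h, and 0.464, 0.48 and 0.322 CPM and 32.7, 36.7 and 33.1 CPM in cumulus cells.

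Summed markers of other cells moved with these changes. From 0 to 12 h the sum of 8 endothelial markers went from 9.99 to 19.0 CPM up to 164 to 201 CPM in cumulus libraries (Cldn5 at 0) and from 36.4 to 59.1 CPM up to 133 to 165 CPM in mural libraries. The sum of 10 neutrophil markers went from 0.0546 to 0.900 CPM up to 10.3 to 12.4 CPM in cumulus libraries (Ngp, Mpo, Elane and Ly6g at 0) and from 0.371 to 1.25 CPM up to 8.56 to 10.2 CPM in mural libraries (Elane and Ly6g at 0). At 4 h the endothelial sum was 24.6 to 53.5 CPM and 60.1 to 74.0 CPM, and the neutrophil sum 1.45 to 2.76 CPM and 2.50 to 5.26 CPM, in cumulus and mural libraries. The 8 theca markers summed to 48.3 to 71.3 CPM in cumulus libraries at 0 h, 959.5 to 1683 CPM at 4 h (Cyp17a1 and Insl3 at 0) and 1456 to 1651 CPM at 12 h. In mural libraries they summed to 759 to 1044, 2094 to 3472 and 2641 to 3121 CPM. Since Cyp17a1 and Insl3 had counts in cumulus libraries at 0 h and none at 4 h, genes of this list moved in opposite directions there. Its sum in cumulus libraries therefore cannot be read as theca RNA. The 6 erythroid markers summed to 88.4 to 147, 453 to 704 and 382 to 737 CPM in mural libraries and to 9.65 to 18.2, 15.1 to 19.98 and 18.9 to 111 CPM in cumulus libraries. These sums were thus higher at 12 h than at 0 h, without overlap, in both cell types. The part of other cells' RNA in the rises was not tested. For the oocyte, whose markers were nearly gone from cumulus libraries at 12 h, the sum as a covariate left 21 of the 37 genes called from 0 to 12 h (19 higher, 2 lower), and it cannot be told apart from the time.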

How the data were processed

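RNA-seq counts of 18 libraries were analysed. Per the labels' protocols, RNeasy kits were used for RNA and a stranded mRNA kit, after polyA selection, for the libraries. CLC Genomics Workbench was used with default parameters, and the build was GRCm38 per the submitters' processing notes, with version, annotation and use of strand not given in the sources used here. Deposited values are whole-number counts of uniquely mapped reads per gene by the authors, not normalized. The counts were fitted here with edgeR 4.0.16 in R 4.3.3 (TMM factors, filterByExpr with a minimum count of 10, robust quasi-likelihood, 6 group means), giving 11 comparisons over 19941 genes that hold 99.96% of reads, with Benjamini-Hochberg adjustment and a threshold of 0.05. Depth was 32.2 to 47.9 M counts a library. Limits from counts of 0 cover counting error only. Levels between genes and subunit shares used CPM per kb of exon union (GENCODE M21, GRCm38). Values in every library are given for the 4 largest rises and falls over 10 CPM in each change from 0 h, the 4 largest differences between cell types at each time, the most widely expressed gene of each role, and subunit families. In the other gene lists up to 3 called genes with the largest change were open to naming. Igf2r, Tfe3 and Man2b1 are named for 1 comparison each, with some of their others beside it. The genes, lists and tests were chosen with earlier results of these data known. Alternatives were DESeq2 1.42.0, library totals, no filter, limma 3.58.1 (voom with quality weights), only the groups compared, a replicate block, an oocyte marker covariate, leaving out each library or both that stood apart, and the longest transcript as gene length. The scripts were tested on simulated data.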

Additional observations from a re-analysis of the deposited data

Results flagged for a closer look

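Each result here is a difference between the cell types in the response to hCG that passed the test of the difference itself, edgeR's quasi-likelihood test adjusted over all genes. A positive value means that the log2 change from 0 h was higher in cumulus than in mural cells.

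From 0 to 4 h the difference was 2.07 for Ctsh, 1.25 for Ctsc, 1.21 for Atp6v0a1, 1.01 for Ctsb, 0.72 for Atp6v1b2 and 0.48 for Lamp1, and it was −0.72 for Ctsl and −0.48 for Atp6v1f. The Ctsh value was 1.3 without cumulus 4 h replicate 3 (adjusted p = 0.0125) and 1.02 without both libraries that stood apart (adjusted p = 0.00257). The Atp6v1f value was not called without cumulus 4 h replicate 3 (−0.38, adjusted p = 0.0573) or without cumulus 0 h replicate 1 (−0.42, adjusted p = 0.0837), among other libraries. In mural cells Atp6v1f itself rose at 4 h by 0.32, and that call was lost without any one of 6 mural libraries.

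From 0 to 12 h the cathepsins with a positive difference were Ctsc (2.23), Ctsb (2.22), Ctsf (2.09), Ctsh (1.66), Ctsk (1.51), Ctsd (1.08), Ctso (0.71) and Ctsz (0.61), and those with a negative one were Ctsl (−0.85) and Ctss (−2.14). Of the membrane glycoproteins, Lamp2 differed by 1.095 and Lamp1 by 0.77. The accessory genes Atp6ap2 and Atp6ap1 differed by 1.16 and 1.001. Among pump subunits the difference was 0.96 for Atp6v1g2, 0.86 for Atp6v0a1, 0.79 for Atp6v0a2, 0.71 for Atp6v1a, 0.52 for Atp6v1b2, 0.51 for Atp6v0e and 0.38 for Atp6v0d1. It was −0.997 for Atp6v0e2, −3.42 for Atp6v0a4 and −3.75 for Atp6v1b1, where the last pair rest on few counts and depend on the prior count. The Atp6v1b1 difference was lost without any one of 5 libraries (adjusted p = 0.0525 to 0.0801).

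The Atp6v0d1 difference (adjusted p = 0.0475) was lost without any one of 13 libraries, and the Atp6v1g2 difference (adjusted p = 0.0297) without any one of 9. Ctsz was not called without mural 0 h replicate 1, mural 12 h replicate 3 or cumulus 0 h replicate 2 (0.53 to 0.57), and Ctsh without mural 0 h replicate 1 (1.54, adjusted p = 0.0617) or cumulus 0 h replicate 1 (1.42, adjusted p = 0.0515). The Ctso difference was lost without any one of 5 libraries (adjusted p = 0.053 to 0.065).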

How the results depend on the processing

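Counts of calls kept within 1.5 times in all settings but these: with only the groups compared, 12 in cumulus cells from 0 to 4 h and 4 for the difference in response at 4 h; with limma voom, 29 between cell types at 12 h; and with the oocyte marker sum as a covariate, 21 in cumulus cells from 0 to 12 h, 11 from 4 to 12 h and 11 for the difference in response at 12 h. The cause was not tested, except that the oocyte sum nearly coincides with the cumulus 12 h group and cannot be told apart from it. Of 233 called results for single genes, 129 were called in the same direction in all alternatives, 96 missed the threshold in at least 1 and 19 changed sign in at least 1.

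Sign changes: with library totals, Atp6v1f in mural cells from 0 to 4 h (−0.0096); without both libraries that stood apart, Ctsh in cumulus cells from 0 to 4 h (−0.11; 0.14 to 1.28 with 1 library left out). All others came with the oocyte covariate. In cumulus cells from 0 to 12 h these were Ctsa (−0.032), Ctsz (−0.21), Atp6v0b (−0.22), Atp6v1f (−0.041), Atp6v0a4 (0.59), Atp6v0a1 (−0.21), Ctsl (−0.15) and Ctsw (−0.67). From 4 to 12 h they were Ctsz (−0.57), Ctso (−0.075), Atp6v0b (−0.12), Atp6v0e2 (−0.78) and Ctsh (2.41), between cell types at 12 h Atp6v0a4 (0.66), and for the difference at 12 h Ctsz (−0.49), Ctso (−0.49) and Atp6v0a4 (0.46).

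Over all pairs of groups, most same-numbered libraries did not deviate together (10 of 45 pairs with r over 0.1, median 0.016). Between mural and cumulus cells at the same time, r was 0.375, −0.0597 and 0.272 at 0 h. It was 0.088, 0.033 and 0.0961 at 4 h and 0.00922, −0.00504 and −0.00801 at 12 h. Whether the numbers pair samples, above all at 0 h, therefore cannot be told from these values. The replicate block gave 18, 23 and 18 calls in mural cells (4 against 0 h, 12 against 0 h, 12 against 4 h). It gave 23, 32 and 28 in cumulus cells, 18, 20 and 19 between cell types and 8 and 23 for the differences. It kept 230 of the 233 calls. Leaving out each library gave 21 to 26 calls in mural and 31 to 33 in cumulus cells from 0 to 12 h. With the longest transcript as length, the Atp6v0a1 share was 80.7, 48.8 and 73.4% in mural cells and 68.0, 46.9 and 60.3% in cumulus cells. Depth limits Atp6v0a4, Atp6v0d2 and Atp6v1b1, whose counts are given above.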
